A study of Mus musculus with 3 samples.

Results

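The genes that place DNA methylation and the genes that remove it were read in 3 cultures of mouse pluripotent stem cells. The set lists 9 genes, chosen by symbol, and 8 of them are among the 22180 genes that the array table measured with a probe set of their own. Genes that add or keep methylation are Dnmt1, Uhrf1, Dnmt3a, Dnmt3b and Dnmt3l, 5 in all. Genes that take it away are Tet1, Tet2, Tet3 and Tdg. Tdg, the glycosylase that cuts oxidised methylcytosine out of DNA, was listed only on 2 probe sets shared with Tdg pseudogenes, so it was not analysed here. Each of the 8 measured genes had 1 probe set.

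Both mESC (mouse embryonic stem cell) cultures were of the established EB3 line, grown in N2B27 medium, and the mEpiSCs (mouse epiblast stem cells) were induced from EB3 mESCs and grown in the same base medium. For 64 days the Activin+PD culture received Activin A, which signals through SMAD proteins, at 20 ng/ml, and PD0325901, which inhibits the kinase MEK upstream of ERK, at 2 µM. For 34 days the 2i culture received the same dose of PD0325901 with CHIR99021, which inhibits GSK3 and so stabilises beta-catenin, also at 2 µM. The mEpiSC culture received Activin A at 20 ng/ml with bFGF at 12 ng/ml, for a time that the labels do not state. PD0325901 was therefore common to both mESC cultures, and Activin A to the Activin+PD and mEpiSC cultures. Time in culture differed along with the factors, as did the induction to mEpiSCs, and their parts in a difference cannot be told apart. Each culture was measured on 1 Affymetrix Mouse Gene 2.0 ST array, so no difference was tested, and "higher" and "lower" describe these 3 arrays.

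Methyl groups on cytosine are set by de novo enzymes and copied after replication by a maintenance enzyme. DNMT3A and DNMT3B are the de novo enzymes, and DNMT3L is a catalytically inactive partner that stimulates them. DNMT1 is the maintenance enzyme, and UHRF1 brings it to hemimethylated DNA at replication forks. TET enzymes oxidise methylcytosine, which leads to its loss by dilution or by base excision. In the mouse embryo, DNA methylation is low in the naive inner cell mass and is gained as the epiblast implants. Cells in 2i are known for low DNA methylation, whereas epiblast stem cells are highly methylated. Methylation itself was not measured here.

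All 8 measured genes were above background on all 3 arrays. Background was set by 1405 receptor probe sets (olfactory or vomeronasal), whose 95th percentile was a log2 intensity of 5.50 on the Activin+PD array, 5.59 on that of 2i and 5.57 on that of mEpiSC. Of all genes, 62.1%, 60.2% and 61.6% were above it. The samples' labels were checked against marker genes. The tissue label of the mEpiSC sample reads mESC, while its title and source name say mEpiSC. All 8 naive markers, such as Zfp42 and Tfcp2l1, were at least 2-fold lower on the mEpiSC array than on either mESC array, and 7 of 8 mEpiSC markers, such as Fgf5 and Cer1, were at least 2-fold higher than in 2i. Against Activin+PD, 6 of those 8 were at least 2-fold higher. The 10 fibroblast markers summed to an intensity of 555 in Activin+PD, 543 in 2i and 618 in mEpiSC. Of these, 6 were above background on every array: Col1a1, Col1a2, Col3a1, Thy1, Pdgfrb and Fbln5. Their highest intensity was 105 in Activin+PD, 95.6 in 2i and 120 in mEpiSC. Postn, Dcn, Lum and S100a4 were below background on every array. The labels do not mention feeder cells. In bulk RNA, fewer cells that express a gene and less of its RNA per cell cannot be told apart.

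The 3 genes with the widest range between arrays were Tet2, Dnmt3b and Dnmt3l. Their promoters are shown because these genes carried the largest differences and because CpG dinucleotides, in capitals, are the substrate of the enzymes described here. The windows run from 250 bases before to 50 bases after the start site, are from RefSeq on GRCm38.p6, and are written 5′ to 3′ on the gene's strand. Dnmt3b starts in chr2:153649199-153649498 on the + strand, Dnmt3l in chr10:78042037-78042336 on the + strand, and Tet2 in chr3:133544341-133544640 on the - strand. Dnmt3l has 3 start sites in the table, and the most upstream is shown.
Dnmt3b: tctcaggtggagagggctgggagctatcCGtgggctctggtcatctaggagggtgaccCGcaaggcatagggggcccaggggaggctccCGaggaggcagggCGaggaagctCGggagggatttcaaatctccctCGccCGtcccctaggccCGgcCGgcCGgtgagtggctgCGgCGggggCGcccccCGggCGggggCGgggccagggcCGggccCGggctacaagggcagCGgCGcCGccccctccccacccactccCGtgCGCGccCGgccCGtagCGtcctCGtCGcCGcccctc
Dnmt3l: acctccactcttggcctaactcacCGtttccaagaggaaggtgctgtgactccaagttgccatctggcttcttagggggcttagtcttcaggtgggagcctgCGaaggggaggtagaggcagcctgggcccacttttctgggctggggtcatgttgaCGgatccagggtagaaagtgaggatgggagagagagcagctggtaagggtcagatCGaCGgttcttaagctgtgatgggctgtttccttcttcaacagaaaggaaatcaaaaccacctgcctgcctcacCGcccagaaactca
Tet2: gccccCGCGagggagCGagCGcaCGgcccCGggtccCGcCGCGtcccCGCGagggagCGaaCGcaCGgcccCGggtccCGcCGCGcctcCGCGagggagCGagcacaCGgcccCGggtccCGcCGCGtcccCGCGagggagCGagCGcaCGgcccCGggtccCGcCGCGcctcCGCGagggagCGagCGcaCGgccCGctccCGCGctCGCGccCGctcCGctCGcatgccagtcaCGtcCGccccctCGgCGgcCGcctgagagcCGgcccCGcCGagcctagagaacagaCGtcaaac

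The Tet2 window held 57 CpG, and 0.152% of 32817 promoter windows held at least as many. The Dnmt3b window held 30, a number reached by 11.7% of windows. The Dnmt3l window held 6, close to the median of 7 over all windows, and its other 2 windows held 4 and 3. The promoters of these 3 genes thus ranged from near the median to among the most CpG-rich. Methylation and binding at these windows were not analysed here, so nothing is read from them about control.

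Dnmt3b, a de novo methyltransferase, had a log2 intensity of 8.95 in Activin+PD, 9.54 in 2i and 11.60 in mEpiSC. It was the member highest in mEpiSC relative to the mESC cultures, with the Activin+PD culture lowest. The mEpiSC array was 4.15-fold above 2i and 6.27-fold above Activin+PD, log2 differences of 2.05 and 2.65. Of the genes compared, 0.991% were higher by as much against 2i and 0.347% against Activin+PD.

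Dnmt3a, the other de novo enzyme, ran in the opposite order. Its log2 intensity was 9.19 in Activin+PD, 8.48 in 2i and 7.99 in mEpiSC. The Activin+PD array was 1.63-fold above 2i (log2 difference 0.71), and the mEpiSC array was 2.29-fold below Activin+PD (-1.20) and 1.41-fold below 2i (-0.49). The difference of Dnmt3b minus that of Dnmt3a was -1.30 on the log2 scale between Activin+PD and 2i, 2.54 when 2i was subtracted from mEpiSC, and 3.85 when Activin+PD was subtracted from it. The genes for the 2 de novo enzymes therefore differed unequally between all 3 pairs of cultures. RefSeq lists 3 start sites for Dnmt3a, and the single probe set gives no value for each transcript.

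Dnmt3l, the inactive partner of the de novo enzymes, stood at a log2 intensity of 7.71 in Activin+PD, 7.60 in 2i and 5.78 in mEpiSC. Both mESC arrays were close together and the mEpiSC array was just above its background of 5.57. The mEpiSC level was 3.54-fold below 2i (-1.82) and 3.81-fold below Activin+PD (-1.93). Dnmt3b and the partner gene Dnmt3l thus stood on opposite sides between mEpiSCs and both mESC cultures.

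The maintenance pair varied little. Dnmt1 stood at a log2 intensity of 9.87 in Activin+PD, 10.15 in 2i and 9.76 in mEpiSC, a range of 0.39. Uhrf1, which recruits DNMT1, stood at 10.13, 10.29 and 10.15, a range of 0.16 and the smallest of the 8. Both were highest in 2i. For scale, the disagreement between probe sets of the same gene, taken over 620 genes with more than 1, had a standard deviation of 0.24 on the log2 scale between the mESC arrays, 0.35 between mEpiSC and 2i, and 0.32 between mEpiSC and Activin+PD. That spread covers probe set error and not variation between cultures. The 3 differences of Uhrf1 were all within it, as was Dnmt1 for mEpiSC minus Activin+PD, at -0.11. The other differences of Dnmt1, -0.28 in Activin+PD and -0.39 in mEpiSC against 2i, were slightly beyond it.

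Tet2, an oxidising enzyme of the naive state in mouse cells, had the widest range of all members. Its log2 intensity was 9.86 in Activin+PD, 9.71 in 2i and 6.10 in mEpiSC. The mESC arrays differed by 0.14, within the probe set spread, and the mEpiSC array was 12.3-fold below 2i (-3.62) and 13.6-fold below Activin+PD (-3.76). Of 14223 genes compared between mEpiSC and 2i, 31 including Tet2 were lower by as much, or 0.218%.

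Tet1, the other Tet enzyme known from mouse embryonic stem cells, had a log2 intensity of 10.10 in Activin+PD, 9.55 in 2i and 9.58 in mEpiSC. It was highest in Activin+PD, 1.47-fold above 2i (0.55), while 2i and mEpiSC differed by 0.03. Tet3, known for its role in the zygote, had a log2 intensity of 6.18 in Activin+PD, 6.25 in 2i and 6.97 in mEpiSC. It was the Tet gene that was highest in mEpiSC, 1.66-fold above 2i (0.73) and 1.73-fold above Activin+PD (0.79). Tet3 was near background in both mESC cultures, as Tet2 was in mEpiSC, so the sizes of these differences are uncertain. With 16 subtracted from each value, those of Tet3 were 0.87 against 2i and 0.95 against Activin+PD. The difference of Tet3 minus that of Tet2 was 4.34 in mEpiSC against 2i and 4.55 against Activin+PD, while it was -0.21 in Activin+PD against 2i. The Tet genes thus differed unequally between mEpiSCs and mESCs.

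**Figure D1:**
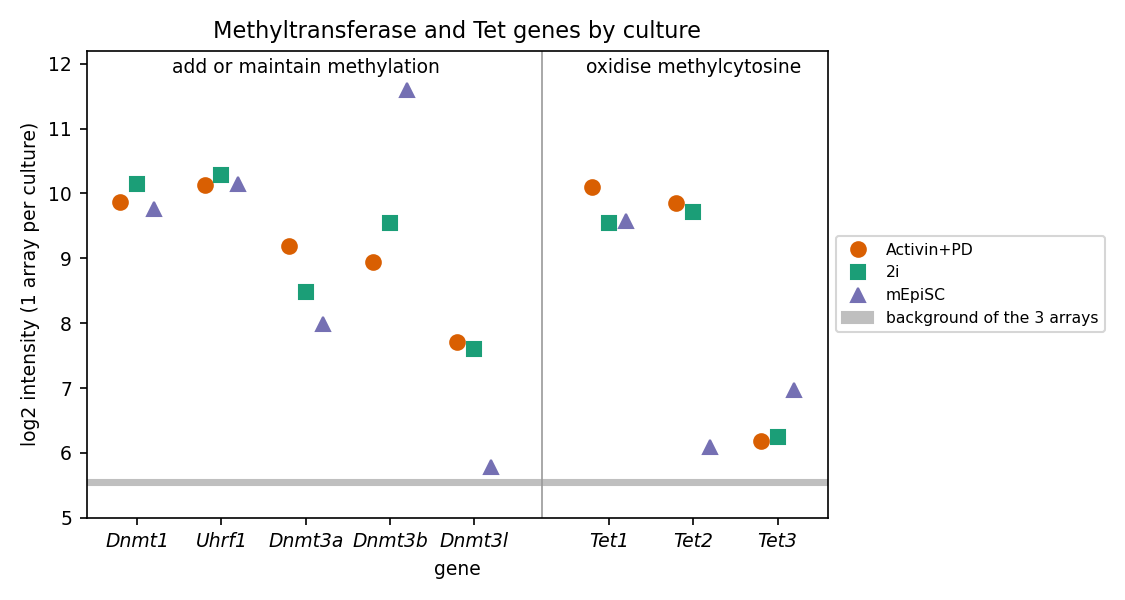
Log2 intensity of each measured gene (x axis) in each culture, 1 point per array, with the range of background levels as a grey band. Points are to be compared within a gene and not between genes; Dnmt3b is highest in mEpiSC at 11.60, while Tet2 at 6.10 and Dnmt3l at 5.78 lie near background there.

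Between Activin+PD and 2i, the comparison that sets Activin A against the GSK3 inhibitor with MEK inhibition in both, 0 of 8 members were 2-fold apart, where 2.19% of 14074 genes compared were, 1.37% higher and 0.817% lower. The median difference was -0.16 over the 5 genes that add methylation and 0.14 over the 3 Tet genes, against -0.0069 over all genes. Beyond the probe set spread of 0.24 were Dnmt3a and Tet1, higher in Activin+PD, and Dnmt3b and Dnmt1, lower. The other 4 members lay within it. A difference as high as that of Dnmt3a was found in 3.11% of the genes compared, and one as low as that of Dnmt3b in 352 genes.

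Between mEpiSC and 2i, 1 of 8 members was at least 2-fold higher, Dnmt3b, where 4.53% of 14223 genes were. Dnmt3l and Tet2 were at least 2-fold lower, 2 of 8, where 4.96% of genes were, and 9.48% of genes were 2-fold apart in either direction. With members this few, these shares are a description. The median was -0.39 over the genes that add methylation, with a range from -1.82 to 2.05, and 0.03 over the Tet genes, with a range from -3.62 to 0.73. The median over all genes was 0.03. Of the genes that add methylation, 4 of 5 were below 2i and Dnmt3b was above it. Among those 4, only Dnmt3l was 2-fold lower, and Uhrf1, at -0.15, was within the probe set spread of 0.35. The Tet genes held values on both sides.

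The mEpiSC and Activin+PD cultures shared Activin A and differed in the MEK inhibitor, in bFGF and in the induction to mEpiSCs. Dnmt3b was at least 2-fold higher in mEpiSC, 1 of 8 members, where 3.58% of 14404 genes were. Dnmt3a, Dnmt3l and Tet2 were at least 2-fold lower, 3 of 8, where 5.37% of genes were, and 8.95% of genes were apart in either direction. The medians were -0.11 for the genes that add methylation and -0.52 for the Tet genes, against 0.04 over all genes. This comparison uses the same arrays as the other two and is not an independent measurement. Dnmt3a was the member that was 2-fold apart here and not against 2i, at -1.20 and -0.49.

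**Figure D2:**
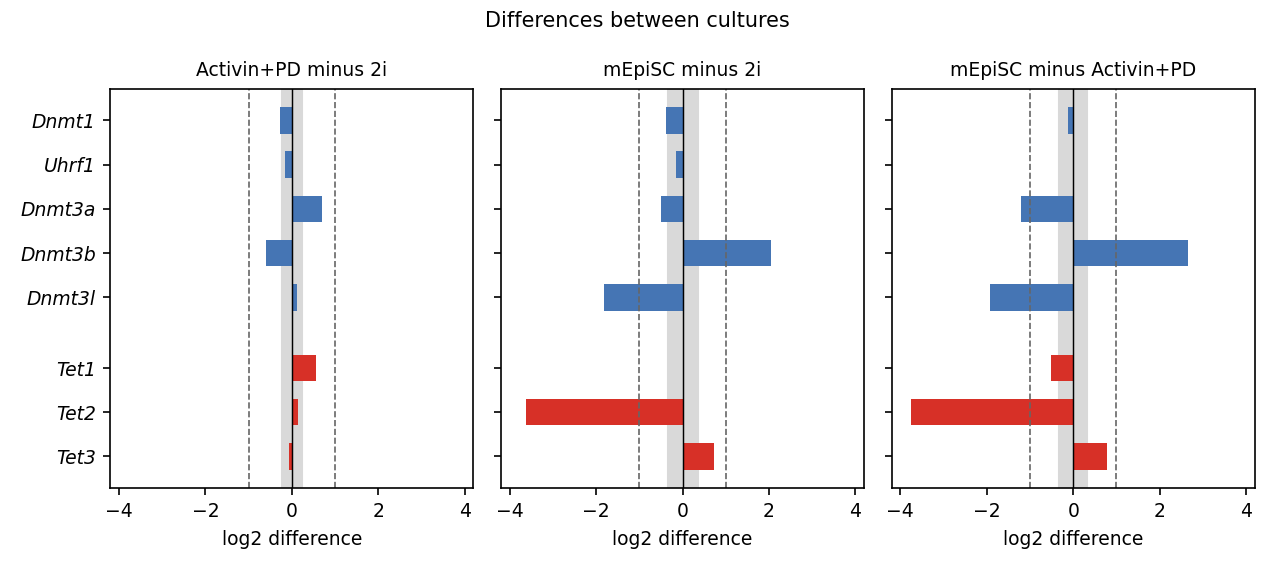
Log2 difference of each gene (y axis; blue, genes that add or keep methylation; red, Tet genes) in each of the 3 comparisons. Dashed lines mark 2-fold and the grey band the probe set spread; no bar passes 2-fold for Activin+PD minus 2i, and Dnmt3b, at 2.05 and 2.65, points away from Dnmt3l and Tet2 in both mEpiSC comparisons.

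Profiles over the 3 arrays were set against all 14538 genes above background on at least 1 array, by the Euclidean distance of log2 values centred on each gene's mean. The nearest to Dnmt3b were Pim2 at a distance of 0.11, Vwa5a at 0.16, Spred1 at 0.16, Tasor2 at 0.20 and Cldn7 at 0.23. Pim2, a serine/threonine kinase gene, had a log2 intensity of 7.92 in Activin+PD, 8.48 in 2i and 10.68 in mEpiSC. Spred1, which encodes an inhibitor of Ras-ERK signalling, stood at 6.90, 7.49 and 9.35. All were lowest in Activin+PD and highest in mEpiSC, as Dnmt3b was, and Cldn7 was below background in Activin+PD. The nearest to Tet2 were Triml2 at 0.12, Spic at 0.20, Rex2 at 0.23, Nr5a2 at 0.24 and Gdf3 at 0.24. Nr5a2, a nuclear receptor gene, stood at 10.04 in Activin+PD, 10.21 in 2i and 6.33 in mEpiSC, and Triml2 and Spic were below background in mEpiSC. With 3 arrays, nearness is a description of 3 values per gene.

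**Figure D3:**
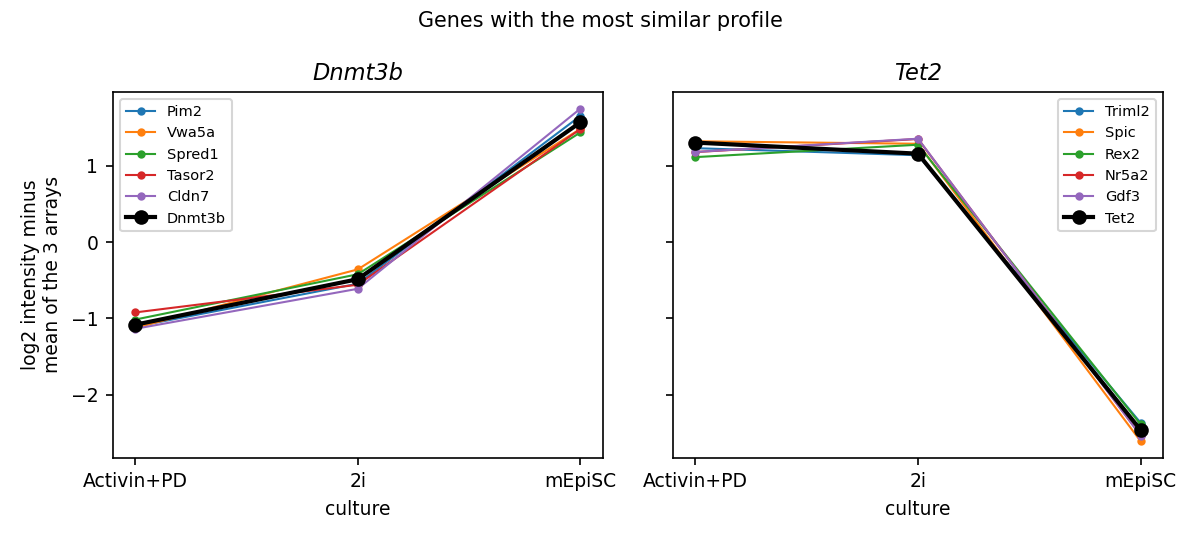
Log2 intensity of Dnmt3b (left) and Tet2 (right), in black, and of the 5 genes with the nearest profile, in colours, on each array (x axis), after the mean of the 3 arrays was subtracted from each gene. The Dnmt3b set is lowest in Activin+PD and highest in mEpiSC, and the Tet2 set is level in both mESC cultures and low in mEpiSC.

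Genes for proteins that guide methyltransferases to DNA or copy methylation with them came next. Levels from here on are log2 intensities, given in the order Activin+PD, 2i and mEpiSC where no culture is named, and differences are of log2 intensity. Of 18 listed, 17 were measured, and between Activin+PD and 2i none of the 17 was 2-fold apart, where 2.19% of all genes were (median -0.14). Nsd2, a histone H3K36 methyltransferase, was lowest in Activin+PD at 7.94, against 8.87 in 2i and 8.75 in mEpiSC. Kdm1a, a histone demethylase, was the highest of the list relative to 2i, at 10.48 against 9.95. Between mEpiSC and 2i, 1 of 17 was at least 2-fold lower and none higher (median -0.11), where 4.96% of all genes were lower and 4.53% higher, so the counts are near those of genes in general. That gene was Zfp57, a zinc finger protein that keeps methylation at imprinted loci, at 10.35 in Activin+PD, 10.03 in 2i and 8.86 in mEpiSC. Between mEpiSC and Activin+PD it was again the 1 gene of 17 at least 2-fold lower, at -1.49, where 5.37% of all genes were. Nsd2 was the highest there at 0.82. Ehmt1, a histone H3K9 methyltransferase gene, had the largest positive difference of mEpiSC minus 2i, at 0.32. Hells, a remodeller needed for methylation in the mouse, stood at 10.57, 10.41 and 10.69.

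Of 8 listed Tet partners and factors that oppose methylation, 7 were measured. None of 6 compared was 2-fold apart between Activin+PD and 2i, where 2.19% of all genes were. In mEpiSC, 1 of 7 was at least 2-fold lower in either comparison, where 4.96% of all genes were lower against 2i and 5.37% against Activin+PD. That gene was Prdm14, which represses the de novo methyltransferase genes in mouse embryonic stem cells. It stood at 8.84 in Activin+PD and 7.87 in 2i and was below background in mEpiSC, lower there by at least 4.93-fold against 2i and 9.66-fold against Activin+PD. Prdm14 was thus highest in Activin+PD and lowest in mEpiSC, the order opposite to that of Dnmt3b and the same as that of Dnmt3a and Dnmt3l, and its part in their levels was not tested. Dppa3, which encodes a protein that restrains UHRF1, stood at 6.68, 6.71 and 5.79. Cxxc4, an antagonist of Tet2, was below background in both mESC cultures and 5.79 in mEpiSC, higher by at least 1.15-fold against 2i and 1.22-fold against Activin+PD. Ogt, a partner of the Tet proteins, stood at 10.84, 10.71 and 10.20.

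Base excision repair completes active demethylation, and 12 of 16 listed genes of this and related repair were measured. None of the 12 was 2-fold apart between Activin+PD and 2i, where 2.19% of all genes were, and 1 was at least 2-fold lower in mEpiSC in either comparison, where 4.96% and 5.37% were. These counts are near those of genes in general. That gene was Gadd45g, of a family linked to DNA repair and demethylation, at 7.85 in Activin+PD, 7.56 in 2i and 5.87 in mEpiSC. Neil1, a glycosylase gene, was the lowest in Activin+PD relative to 2i, at 6.06 against 6.53. Neil3, another glycosylase gene, was higher in mEpiSC at 6.67, against 5.98 in 2i and 5.97 in Activin+PD.

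Of 7 listed genes for proteins that bind methylated CpG, 6 were measured and none was 2-fold apart from 2i in Activin+PD or mEpiSC, where 2.19% and 9.48% of all genes were. Zbtb38, a zinc finger reader, stood at 7.80 in Activin+PD, 7.29 in 2i and 6.77 in mEpiSC. It was the 1 gene of 6 at least 2-fold lower in mEpiSC than in Activin+PD, at -1.03, where 5.37% of all genes were. Zbtb33, also called Kaiso, was highest in mEpiSC at 7.93, against 7.25 and 7.24. Mbd1 was highest in 2i at 7.83, against 7.21 in Activin+PD and 7.28 in mEpiSC.

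Methyl groups come from the donor SAM, and Tet enzymes need the metabolite 2-oxoglutarate and are helped by vitamin C. Of 17 listed genes of these supplies, 14 were measured and none was 2-fold apart between Activin+PD and 2i, where 2.19% of all genes were. In mEpiSC, 2 were at least 2-fold higher and 1 lower, against 2i and against Activin+PD alike, where 9.48% and 8.95% of all genes were apart in either direction. Idh2, a mitochondrial isocitrate dehydrogenase that makes 2-oxoglutarate, was the lower gene, at 10.45 in Activin+PD, 10.36 in 2i and 8.43 in mEpiSC. Slc23a1, a vitamin C transporter gene, was higher in mEpiSC at 8.09, against 5.76 and 6.02, and D2hgdh, which turns 2-hydroxyglutarate into 2-oxoglutarate, at 6.95 against 5.85 and 5.91. In the mESC cultures both genes were near background, which was 5.50 in Activin+PD and 5.59 in 2i. Slc23a2, the other vitamin C transporter gene, had the largest positive difference of Activin+PD minus 2i at 0.34, and Mtr, the methionine synthase gene, the largest negative one at -0.37.

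The last list held germline genes known to be kept silent by DNA methylation in mouse cells, and 18 of 20 listed were measured. Methylation at these genes was not measured, and its part in their levels was not tested. In Activin+PD, 5 of 15 compared were at least 2-fold higher than in 2i and 1 was lower (median 0.50), where 1.37% of all genes were higher and 0.817% lower. Sohlh2 stood at 10.33 against 8.88, and Rpl10l, the lower gene, at 7.92 against 9.07. The other 4 that were higher were Rhox5, Mael, Dazl and Taf7l. Taf7l was below background in 2i, and as a bound it was higher by at least 1.61-fold, short of 2-fold. Slc25a31, Brdt and Dpep3 were also below background in 2i. These genes and Taf7l entered through the Activin+PD array alone, so their higher values were set by the filter. The median of 0.50 was the difference of Slc25a31. In mEpiSC, 7 of 11 were at least 2-fold lower than in 2i and none higher (median -1.41), and 10 of 15 lower than in Activin+PD (median -1.90). Of all genes, 4.96% and 5.37% were lower in these comparisons. By their measured values, the 7 were Sohlh2, Rpl10l, Dazl, Ddx4, Tex19.1, Stk31 and Mael, joined against Activin+PD by Rhox5, Taf7l and Sycp1. As bounds against background, some fell short of 2-fold. Mael was lower than in 2i by at least 1.49-fold and Stk31 by at least 1.61-fold. Against Activin+PD, the bounds were 1.63-fold for Taf7l and 1.36-fold for Sycp1. Of the genes compared, only Rhox5, Tex19.1 and Piwil2 were above background in mEpiSC. The others entered through the mESC array alone, so the lower values in mEpiSC and the lack of higher ones were largely set by the filter. Measured genes left out of a comparison were below background on both of its arrays. With dim values raised to background, the counts were 4 higher and 1 lower between the mESC cultures, and in mEpiSC 5 lower against 2i and 8 lower against Activin+PD, with medians of 0.42, -0.68 and -1.24. Sohlh2 in mEpiSC was below background, at least 9.91-fold below 2i.

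**Figure D4:**
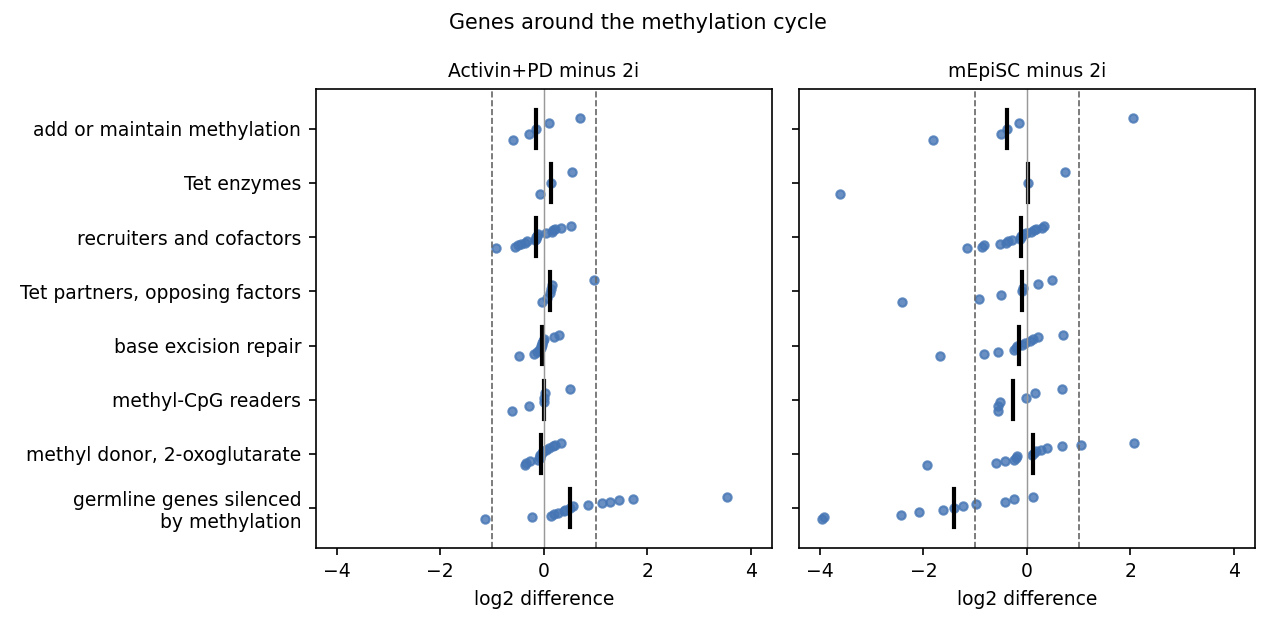
Log2 difference of each compared gene (points) and list median (black bars) in Activin+PD (left) and mEpiSC (right) against 2i, by list (y axis), with dashed lines at 2-fold. On the left, the germline genes are the 1 list with points past 2-fold, and their median is 0.50 there and -1.41 on the right. On the left, Taf7l, Slc25a31, Brdt and Dpep3 were below background in 2i and were compared through Activin+PD alone. Most germline genes on the right were below background in mEpiSC and were compared through 2i alone.

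Short motifs were searched on both strands of every promoter window as a description of the letters. The motifs were CTTTGA for TCF/LEF, CAGAC for the SMAD box, TTCNNNGAA for STAT, ATGCAAAT for the octamer, GGGCGG for the GC box and TTTNGCGC for E2F, and no overlap between them was removed. They were found in 16% of windows for TCF/LEF, 49.6% for the SMAD box, 8.29% for STAT, 1.74% for the octamer, 35.6% for the GC box and 1.38% for E2F. The Dnmt3b window held 4 GC boxes, and that of Tet2 held 1 GC box and 1 SMAD box. The window shown for Dnmt3l held 1 GC box. The next Dnmt3l window downstream held 2 GC boxes and 1 STAT match, and the last held 1 SMAD box. E2F letters were in 1 of the 3 Dnmt1 windows, as GCGCGAAA and TTTGGCGC, and in 1 of the 2 Uhrf1 windows, as TTTCGCGC, and in no window of the other 6 members. Those windows lie at chr9:20952574-20952873 on the - strand and chr17:56304063-56304362 on the + strand, and they were singled out after the matches were seen. A match is no evidence of binding.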

How the data were processed

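RNA of 3 cultures was measured on 1 Affymetrix Mouse Gene 2.0 ST array each. The deposited values were intensities on a linear scale, from 18.9 upward; the submitters' processing notes name RMA and the series' design text GeneSpring GX 11.5. The sources used here do not say whether a constant was added before deposit, and such a constant would shrink the differences of dim genes. RMA's quantile normalisation hides a difference in total RNA per cell.

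Log2 was taken, and all statistics were computed in Python 3.11.15 with numpy 2.4.6 and pandas 2.3.3. Of 33793 probe sets, 23521 had 1 symbol, 1814 several and 8458 were not listed in the platform annotation. Symbols of 23328 were matched by Entrez identifier to RefSeq. Where a gene had several probe sets, that with the highest mean was used. A gene entered a comparison when at least 1 of the 2 arrays exceeded background, and a log2 difference of 1 was counted as 2-fold. Counts, medians and figures use the values as measured, unless dim values are said to be raised. Printed differences of single genes to a value below background are bounds against it. Genes named from other lists are those 2-fold apart in any comparison and the extremes of each list, plus a few described for their role. Promoters are shown for members with a range of at least 1.5. The number of arrays, 1 per group, limits the precision, and no p-value was computed. The counting was tested on simulated data with large differences, bright genes and little noise. That test does not speak to dim genes or small differences. The members and lists were chosen with earlier results of these data known.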

Additional observations from a re-analysis of the deposited data

How the results depend on the processing

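The members' differences and the medians and 2-fold counts of both member groups were recomputed under 8 alternatives: 16 subtracted from each value, quantile normalisation again, median centring, removal of a lowess trend, no filter on dim genes, dim values raised to background, the mean of a gene's probe sets, and the dimmest probe set above background. The last 2 leave the members' values as they are, since each had 1 probe set. Dropping the filter and raising dim values also leave them, since all 8 members were above background on every array. These settings could not change a member difference, group median or count, though the totals below include them. All 192 member differences stayed on their side of 2-fold, and 190 kept their sign. The other 2 were Uhrf1 for mEpiSC minus Activin+PD, at -0.02 after median centring and -0.05 after lowess removal, against 0.01. Differences moved by more than the probe set spread with 16 subtracted, where Tet2 was at -3.97 against 2i and -4.12 against Activin+PD, and Dnmt3l at -2.20 and -2.31. All 144 group medians and counts were within their limits. Over all genes, with 16 subtracted, 295 in place of 193 exceeded 2-fold upward between Activin+PD and 2i. The other lists, markers included, were recomputed with dim values raised to background, and the nearest profiles and promoters under no alternative. No paired analysis was possible because each group has 1 array, and no replicate could be left out.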
